A study of Homo sapiens with 16 samples.

Results

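Glycogen is the branched glucose store of animal cells, and 9 genes of its synthesis and breakdown were followed here in hypoxia-resistant and parental cells. They are PGM1, PGM2 and UGP2, which handle glucose phosphates and UDP-glucose, GYS1 and GBE1, which build the polymer, PYGL and PYGB, which degrade it, and PPP1R3B and PPP1R3C, which bring protein phosphatase 1 to it. The genes were taken by name, as 9 of 18417 genes that had a probe set with a single symbol on the array, and each of the 9 had 1 such probe set. They were chosen with earlier results of these data known, so counts of them beside shares of all genes are a description only. RNA of 4 human cell lines was hybridised to Affymetrix arrays, 2 arrays per line and condition, 16 arrays and 8 groups in all. RPMI8226-HR, KMS-11-HR, U266-HR and IM-9-HR are hypoxia-resistant (HR) cells, kept for 24 h at 1% O2, and RPMI8226, KMS-11, U266 and IM-9 are their parental cells, kept for 24 h at 20% O2. Because HR cells were measured at 1% O2 and parental cells at 20% O2, resistance and the oxygen level cannot be told apart in any comparison. How the HR cells were obtained, and whether they are clonal, is not given in the sources used here. IM-9 is labelled myeloma like the others, but is generally known as a lymphoblastoid B cell line carrying Epstein-Barr virus. The remaining 3 are plasma cell tumour (multiple myeloma) lines.

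Values are log2 intensities as the authors deposited them, so a difference of 1 is a doubling. Intensities of different probe sets cannot be set against each other, so each gene was compared only with itself. Array medians lay between 6.22 and 6.34, and no detection calls were used. Genes were tested if they exceeded 6.27 (the median of the whole table) on at least 2 arrays, which kept 12639 genes and 8 of the 9 glycogen genes. GBE1, GYS1, UGP2, PGM1, PGM2 and PYGB exceeded that level on all 16 arrays, PPP1R3B on 12, PYGL on 9 and PPP1R3C on 0. "Rose" and "fell" are used for an adjusted p under 0.05 in limma, HR minus parental. Separate cultures for both arrays of a group are not stated in the labels, so p-values measure only the spread between these arrays, which may be technical. Of 8 plasma cell markers, 6 to 7 lay above the filter level in every group, and 0 of 5 myeloid markers, 1 of 5 T and NK cell markers and 1 to 2 of 6 stromal markers did so. All 6 measured B cell markers were above it in both IM-9 groups, against 1 to 4 of 6 in the other lines. In IM-9, 2 of the 8 plasma cell markers rose with the HR state and 1 fell, where 14.4% of all genes tested rose and 21.3% fell. Of the 6 B cell markers, 0 rose and 4 fell there. The mean level of the B cell markers was 8.86 to 8.87 on the IM-9-HR arrays, against 9.28 to 9.29 on the parental arrays. The part of this shift in the IM-9 results below was not tested.

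Glycogen synthesis starts from glucose phosphates. Phosphoglucomutase moves the phosphate on glucose, UGP2 then makes UDP-glucose, glycogen synthase (GYS1 is the form of muscle and most other tissues) adds the glucose to growing chains, and the branching enzyme GBE1 adds the side branches. Phosphorylases (PYGL, the liver form, and PYGB, the brain form) release glucose phosphate from the chain ends. PPP1R3B and PPP1R3C are regulatory subunits that hold protein phosphatase 1 on glycogen, where it activates the synthase and inactivates phosphorylase. In other cell types, low oxygen is known to raise glycogen stores, and GYS1, GBE1 and PPP1R3C are described there as genes responding to hypoxia-inducible factors (HIFs). Glycogen itself was not measured.

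The short sequences ACGTG and GCGTG are the core of the hypoxia response element to which HIFs bind. They are shown because the HR cells were kept at low oxygen. Both were searched on both strands in the 250 bases before each RefSeq start site (GRCh38.p14). A run of CACGTG counts once on each strand, as the 2 matches overlap there. Of the 9 genes, 8 were matched (PPP1R3B was not), with 11 start sites, of which 8 held at least 1 match. Of the 8 genes, 7 had a match before at least 1 start site. The shares over all promoters count single promoters, so they stand beside the start sites and not the genes. Over all 35116 promoters of the same length, 43.2% held either motif, 18.5% held ACGTG and 32.2% held GCGTG. The windows of GBE1, which rose in every line, and GYS1 held 2 matches each, and 19.4% of all promoters held 2 or more. The PPP1R3C window held 4, and 7.76% of all promoters held 3 or more. The windows of PYGL and of PGM1 start sites 1 and 3 held 0, and that of PGM1 start site 2 held 3. The windows of PGM1 start sites 2 and 3 and of UGP2 start site 2 lie past the first start site, inside the gene. Matches were also found before genes that rose in no line: 4 for PGM2, 2 and 1 for the start sites of UGP2, and 2 for PYGB. A match is a description of these letters and says nothing about binding. Sequences are 5′ to 3′ on the gene's strand, ending at the base before the start site, with matches in capitals, which read CACGT or CACGC where the match lies on the other strand.
GBE1, chr3:81761646-81761895, minus strand: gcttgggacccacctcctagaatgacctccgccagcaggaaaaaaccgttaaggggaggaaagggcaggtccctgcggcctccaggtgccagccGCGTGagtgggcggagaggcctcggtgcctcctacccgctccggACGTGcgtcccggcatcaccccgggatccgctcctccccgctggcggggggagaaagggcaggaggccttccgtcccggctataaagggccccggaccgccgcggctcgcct
GYS1, chr19:48993310-48993559, minus strand: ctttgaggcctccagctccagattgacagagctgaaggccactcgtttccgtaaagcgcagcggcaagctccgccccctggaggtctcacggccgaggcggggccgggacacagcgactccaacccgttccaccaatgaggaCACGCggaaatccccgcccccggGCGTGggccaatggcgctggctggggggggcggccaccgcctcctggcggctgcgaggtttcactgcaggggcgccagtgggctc
PPP1R3C, chr10:91633072-91633321, minus strand: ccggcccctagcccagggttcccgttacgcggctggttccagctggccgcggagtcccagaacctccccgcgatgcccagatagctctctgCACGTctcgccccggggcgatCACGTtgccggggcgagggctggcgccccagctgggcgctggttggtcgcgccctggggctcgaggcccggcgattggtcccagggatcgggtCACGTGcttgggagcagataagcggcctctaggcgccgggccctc
PGM1, first start site, chr1:63593161-63593410, plus strand: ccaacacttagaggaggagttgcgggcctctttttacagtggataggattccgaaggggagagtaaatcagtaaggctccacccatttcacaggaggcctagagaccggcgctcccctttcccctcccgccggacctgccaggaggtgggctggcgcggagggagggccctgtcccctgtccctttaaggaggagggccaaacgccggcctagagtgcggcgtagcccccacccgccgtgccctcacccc
PYGL, chr14:50944484-50944733, minus strand: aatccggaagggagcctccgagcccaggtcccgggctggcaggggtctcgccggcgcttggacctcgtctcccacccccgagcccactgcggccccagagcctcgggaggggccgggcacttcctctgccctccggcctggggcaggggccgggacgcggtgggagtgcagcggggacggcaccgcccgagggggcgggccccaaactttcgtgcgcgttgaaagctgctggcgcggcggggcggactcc

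GBE1 rose in all 4 lines, and PGM1 rose in the 3 myeloma lines and not in IM-9. The other genes moved in some lines only: GYS1 rose in U266, PPP1R3B rose in U266 and IM-9, PGM2 fell in KMS-11, PYGB fell in IM-9, PYGL rose in RPMI8226 and IM-9 and fell in KMS-11, and UGP2 was called in no line. As the genes were chosen with earlier results known, the counts below do not test them as a set. Of the 8 genes tested, 3 rose and 0 fell in RPMI8226, where 10.7% of all genes tested rose and 15.3% fell. In KMS-11, 2 rose and 2 fell, against 2.44% and 5.83% of all genes. In U266, 4 rose and 0 fell, against 9.68% and 8.42%. In IM-9, 3 rose and 1 fell, against 14.4% and 21.3%. The median difference of the 8 genes was 0.33 in U266, 0.08 in KMS-11, -0.02 in IM-9 and -0.06 in RPMI8226, and over all genes tested it was -0.01, -0.02, -0.06 and -0.01 in the same lines. GBE1 was 1 of 44 genes that rose in all 4 lines, 0.348% of the genes tested, and GBE1 and PGM1 were among the 1.18% that rose in at least 3.

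**Figure D1:**
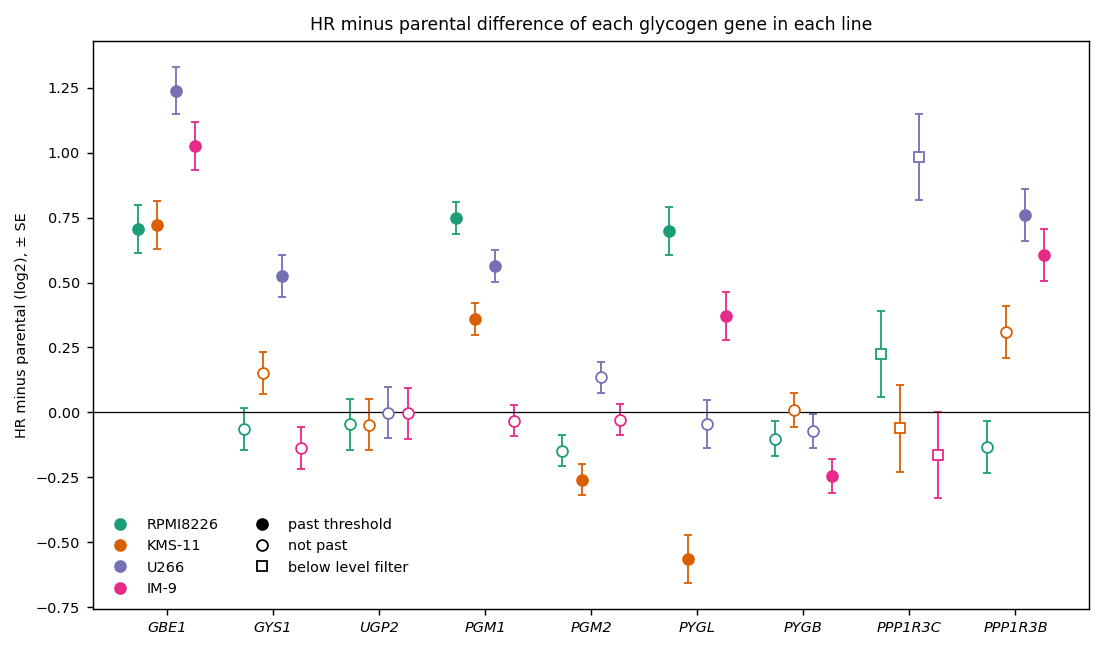
HR minus parental difference of each glycogen gene on the log2 scale, in each of the 4 lines, with bars of 1 SE from the limma fit. The GBE1 points lie between 0.71 and 1.24 in every line, whereas PYGL lies at 0.70 in RPMI8226 and at -0.57 in KMS-11.

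PGM1 (probe set 7901951), the main phosphoglucomutase, read 9.54 and 9.55 on the RPMI8226-HR arrays, against 8.85 and 8.74 on the parental arrays. In KMS-11 it read 9.46 and 9.36 on the HR arrays, against 9.06 and 9.05 on the parental arrays. In U266 it read 9.56 and 9.58 on the HR arrays, against 9.03 and 8.99 on the parental arrays. In these 3 lines every HR array was above both parental arrays. In IM-9 the arrays overlapped, at 9.32 and 9.40 in IM-9-HR cells and 9.37 and 9.41 in parental cells. PGM1 rose by 0.75 ± 0.06 in RPMI8226 (SE; adjusted p = 1.96e-06), by 0.36 in KMS-11 (adjusted p = 0.00369) and by 0.56 in U266 (adjusted p = 2.51e-05), with the same SE. In IM-9 the difference was -0.03 (adjusted p = 0.72; 95% interval -0.16 to 0.10). IM-9 was also the line with the highest parental level, 9.39, against 9.41 to 9.57 in the HR cells of the other lines and 8.80 to 9.05 in their parental cells. The SE of 0.06 is the standard error of each difference, from a spread shared by the 8 groups.

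PGM2, which acts mainly on pentose phosphates and less on glucose phosphates, moved less. Over the 16 arrays its level ran between 8.77 and 9.41. In KMS-11 it read 8.77 and 8.78 on the HR arrays, against 8.98 and 9.08 on the parental arrays, and fell by 0.26 ± 0.06 (adjusted p = 0.0189). This call depended on single arrays: it was lost without KMS-11-HR array 1, KMS-11-HR array 2 or KMS-11 parental array 2, and the adjusted p reached 0.17. The differences of -0.15 in RPMI8226 (adjusted p = 0.0895), 0.14 in U266 (adjusted p = 0.148) and -0.03 in IM-9 (adjusted p = 0.743) did not pass. UGP2, the enzyme that forms UDP-glucose, read 8.32 to 9.25 over the 16 arrays. Its difference was -0.05 in both RPMI8226 and KMS-11, -0.0042 in IM-9 and -0.0016 in U266, each ± 0.10, and the HR and parental arrays overlapped in every line. The 95% intervals of the 4 differences lay within -0.26 and 0.21, so a UGP2 change the size of that of GBE1 was outside them.

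GBE1 (probe set 8088958), the branching enzyme, read 10.07 and 9.95 on the U266-HR arrays, against 8.81 and 8.73 on the parental arrays. In IM-9 it read 9.59 and 9.61 on the HR arrays, against 8.48 and 8.67 on the parental arrays. In RPMI8226 it read 9.14 and 9.39 on the HR arrays, against 8.63 and 8.49 on the parental arrays. KMS-11 was the lowest line in both states, and it read 8.68 and 8.64 on the HR arrays, against 7.89 and 7.99 on the parental arrays. Within each line, both HR arrays stood above both parental arrays. GBE1 rose by 1.24 ± 0.09 in U266 (adjusted p = 7.51e-07), 1.02 in IM-9 (adjusted p = 3.55e-06), 0.72 in KMS-11 (adjusted p = 0.000529) and 0.71 in RPMI8226 (adjusted p = 0.000106). As folds these were 2.36, 2.03, 1.65 and 1.63. Its difference exceeded that of 99.53% of all genes tested in KMS-11, 99.04% in U266, 98.69% in IM-9 and 98.01% in RPMI8226.

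GYS1, glycogen synthase, was called in 1 line. It read 9.14 and 9.10 on the U266-HR arrays, against 8.68 and 8.52 on the parental arrays, with no overlap, and rose by 0.52 ± 0.08 (adjusted p = 0.000495). In KMS-11 it read 9.43 and 9.44 on the HR arrays, against 9.29 and 9.27 on the parental arrays, a difference of 0.15 that did not pass (adjusted p = 0.287). In IM-9 both HR arrays, at 9.30 and 9.42, were below both parental arrays, at 9.51 and 9.49, with a difference of -0.14 (adjusted p = 0.206). RPMI8226 held the lowest levels, 8.26 and 8.33 on the HR arrays and 8.25 and 8.48 on the parental arrays, which overlapped. The synthase and the branching enzyme thus rose together in U266, and in the other 3 lines only GBE1 passed the test. Whether the changes of these genes differ from each other was not tested.

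**Figure D2:**
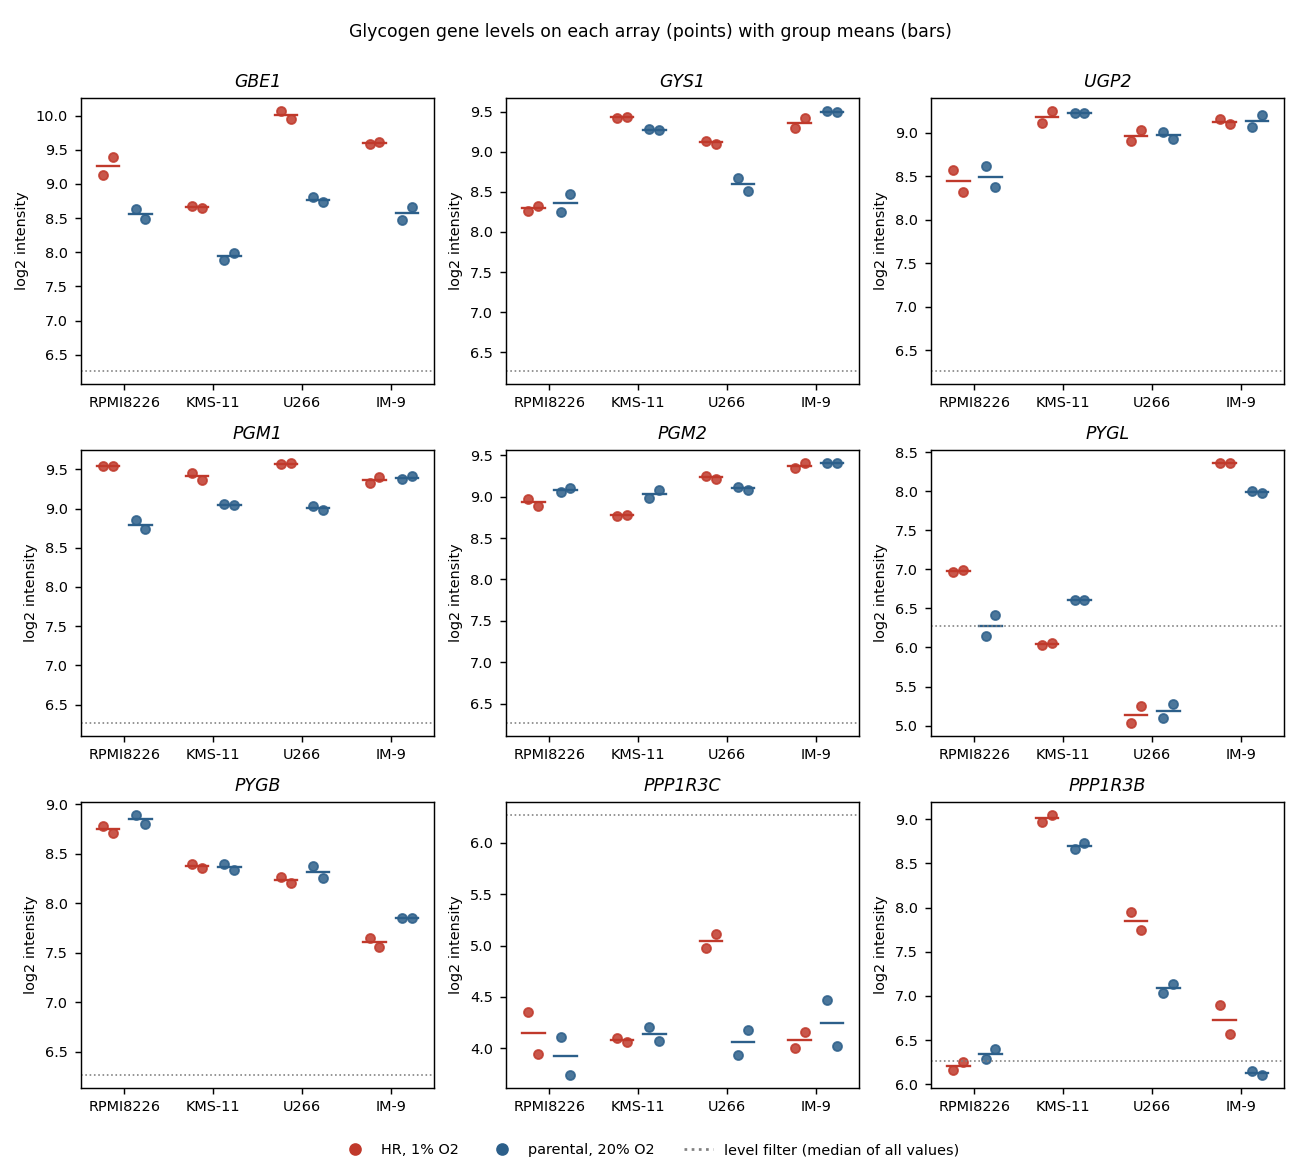
Log2 intensity of each of the 9 glycogen genes on every array, grouped by line with HR cells left of parental cells. In the GBE1 panel the HR arrays lie above the parental arrays of the same line in all 4 lines, and in the UGP2 panel they overlap in all 4.

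PYGL (probe set 7979085), the liver form of phosphorylase, differed most between the lines. It read 6.960 and 6.995 on the RPMI8226-HR arrays, against 6.15 and 6.41 on the parental arrays, and rose by 0.70 ± 0.09 (adjusted p = 0.000107). It read 6.03 and 6.06 on the KMS-11-HR arrays, against 6.61 and 6.61 on the parental arrays, and fell by 0.57 (adjusted p = 0.00277). It read 8.36 and 8.36 on the IM-9-HR arrays, against 8.002 and 7.973 on the parental arrays, and rose by 0.37 (adjusted p = 0.0071). The groups did not overlap in these lines, and both KMS-11-HR arrays and RPMI8226 parental array 1 lay under the filter level. In U266 it read 5.04 and 5.25 on the HR arrays and 5.10 and 5.27 on the parental arrays, all under the filter level, and the difference of -0.04 did not pass (adjusted p = 0.809). PYGB, the brain form, was above the filter level on all arrays, at 7.56 to 8.89. It read 7.65 and 7.56 on the IM-9-HR arrays, against 7.85 and 7.85 on the parental arrays, and fell by 0.24 ± 0.07 (adjusted p = 0.0117). Without IM-9-HR array 2 this call was lost (adjusted p = 0.102). The differences of -0.10 in RPMI8226, 0.01 in KMS-11 and -0.07 in U266 did not pass, with adjusted p of 0.302, 0.958 and 0.518. In IM-9 the 2 phosphorylase genes were thus called in opposite directions, with PYGL higher and PYGB lower in HR cells.

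PPP1R3B encodes the glycogen-targeting subunit of protein phosphatase 1 described in liver. It read 7.95 and 7.74 on the U266-HR arrays, against 7.04 and 7.13 on the parental arrays, and rose by 0.76 ± 0.10 (adjusted p = 0.000135). It read 6.90 and 6.57 on the IM-9-HR arrays, against 6.15 and 6.11 on the parental arrays, and rose by 0.61 (adjusted p = 0.000463). KMS-11 had the highest levels, 8.97 and 9.05 on the HR arrays and 8.67 and 8.73 on the parental arrays, and its difference of 0.31 did not pass (adjusted p = 0.0776). This KMS-11 value passed without either IM-9-HR array, with an adjusted p as low as 0.0386. In RPMI8226, both HR arrays, at 6.16 and 6.26, were below both parental arrays, at 6.29 and 6.40, and the difference of -0.13 did not pass (adjusted p = 0.375). The RPMI8226-HR arrays and the IM-9 parental arrays were under the filter level.

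PPP1R3C, the subunit known as protein targeting to glycogen, stayed under the filter level on all 16 arrays and was not tested. Its values ran between 3.74 and 5.11. The U266-HR arrays read 4.98 and 5.11, against 3.94 and 4.18 on the U266 parental arrays, a difference of 0.98, and were the highest of the 16. In RPMI8226 the difference was 0.22, in KMS-11 -0.06 and in IM-9 -0.16, and the HR and parental arrays overlapped in these 3 lines. With no filter, the U266 value passed (0.98 ± 0.17, adjusted p = 0.00135), but intensities this low carry no detection call here.

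The size of the HR difference was compared between lines with an F test in limma, and 6 of the 8 genes differed, against 45.4% of all genes tested. PYGL had an adjusted p of 3.92e-05, PGM1 of 7.98e-05, PPP1R3B of 0.00104, GYS1 of 0.0017, PGM2 of 0.0106 and GBE1 of 0.0113. UGP2 (adjusted p = 0.98) and PYGB (adjusted p = 0.162) did not pass. Each line's difference was then compared with the average over the remaining 3 lines. These comparisons reuse the same arrays, so they are not independent. In U266, 5 of 8 genes passed, all higher there, against 24.7% of all genes: GYS1 by 0.54 ± 0.09, PPP1R3B by 0.50 ± 0.12, GBE1 by 0.42 ± 0.11, PGM2 by 0.28 ± 0.07 and PGM1 by 0.21 ± 0.07. The PGM1 value was just under the threshold (adjusted p = 0.04995) and was lost in 13 of 16 fits that left out 1 array. The U266 count dropped to 2 without U266 parental array 2 and to 1 without U266-HR array 1. In RPMI8226, 3 of 8 passed, against 26.8%: PYGL was higher by 0.78 ± 0.11 and PGM1 by 0.45 ± 0.07, and PPP1R3B differed by -0.69 ± 0.12. For PPP1R3B, both RPMI8226-HR arrays lay under the filter level and the parental arrays, at 6.29 and 6.40, just above it. In IM-9, 3 of 8 passed, against 30.8%, with PGM1 at -0.59 ± 0.07, GYS1 at -0.34 ± 0.09 and PYGL at 0.34 ± 0.11. The IM-9 count fell to 1, PGM1, without IM-9-HR array 1. The PYGL call was lost without any 1 of the 4 IM-9 arrays and with array weights (adjusted p = 0.0513). In KMS-11, 2 of 8 passed, against 9.52%, PYGL at -0.91 ± 0.11 and PGM2 at -0.24 ± 0.07. The PGM2 call was lost in 13 of 16 fits that left out 1 array, which left 1, and PYGL held in each.

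**Figure D3:**
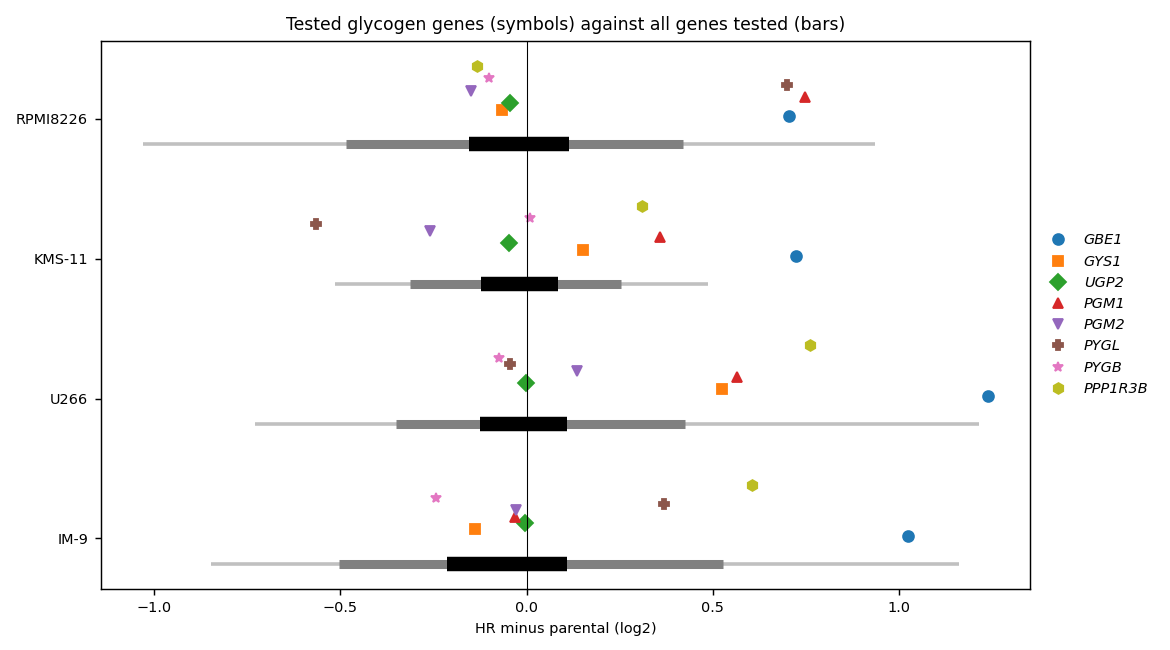
HR minus parental difference of the glycogen genes (points) against the spread of all 12639 genes tested, per line on the log2 scale, with bars from the 1st to the 99th, the 5th to the 95th and the 25th to the 75th percentile. GBE1 lies above the 95th percentile in all 4 lines.

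Taken over the 4 lines as units, 0 of the 8 genes passed, and 0 of 12639 genes did (0%) in limma. At an unadjusted p under 0.05, 288 genes were higher and 505 lower in HR cells, among them 3 of the 8. GBE1 averaged 9.38 in HR cells and 8.46 in parental cells, a difference of 0.92 ± 0.11 with 4 of 4 lines higher (adjusted p = 0.25 in limma). PGM1 averaged 9.47 in HR cells and 9.06 in parental cells, a difference of 0.41 ± 0.13 with 3 of 4 lines higher (adjusted p = 0.764). PPP1R3B differed by 0.39 ± 0.15, higher in 3 of 4 lines (adjusted p = 0.764). Across lines GYS1 differed by 0.12, UGP2 by -0.02, PGM2 by -0.08, PYGL by 0.11 and PYGB by -0.10, none past the threshold. Single arrays fitted with the array number as a block gave 3 calls (GBE1, PGM1 and PPP1R3B), a fit in which arrays of 1 line count as separate units and which called 812 of the 12639 genes.

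The lines differed already as parental cells. All 8 genes tested differed between the parental lines by the F test in limma, as did 94.3% of all genes tested. PYGL averaged 7.99 in IM-9 and 5.19 in U266, where both arrays lay under the filter level. PPP1R3B averaged 8.70 in KMS-11 and 6.13 in IM-9, where both arrays lay under it too. No fold is given for these pairs, as the lower group was not above that level. GYS1 was 1.14 ± 0.08 higher in IM-9 than in RPMI8226, 9.50 against 8.36. PYGB was 1.00 ± 0.07 higher in RPMI8226 than in IM-9, 8.85 against 7.85. GBE1 was 0.83 ± 0.09 higher in U266 than in KMS-11, and its order over the 8 groups ran U266-HR, IM-9-HR, RPMI8226-HR, U266 parental, KMS-11-HR, IM-9 parental, RPMI8226 parental and KMS-11 parental. Within that order the 4 groups from U266 parental to RPMI8226 parental were each within 2 SE of the next, and the other steps were larger. UGP2 had its lowest 2 groups in RPMI8226, 0.74 ± 0.10 below KMS-11 as parental cells. PGM1 and PGM2 spanned less, 0.60 ± 0.06 between IM-9 and RPMI8226 and 0.37 ± 0.06 between IM-9 and KMS-11.

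Over the 8 group means, the genes most like each glycogen gene by Pearson r among 12638 other genes tested were listed as a description. Group means of 4 lines share line differences, and the best match of so many genes is high by choice. For GBE1 these were ZNF160 at 0.976, BNIP3 at 0.948 and ITPKA at 0.885. For PGM1 they were DPCD at 0.921, LDHA, a lactate dehydrogenase subunit, at 0.896 and PFKFB4 at 0.858. For PYGL they were RASAL3, ASCC3 and VASH2 at 0.978 to 0.983, and for PPP1R3B CHRNA1, FAM171A1 and CDV3 at 0.982 to 0.987. For GYS1 they were ANO5, NCBP1 and STIL at 0.974 to 0.977, for UGP2 PSMA5, ZFR and ECHS1 at 0.994 to 0.996, for PGM2 UGDH, TAP1 and CEP57L1 at 0.947 to 0.958, and for PYGB TRAPPC9, ATP6V1F and APBB2 at 0.989 to 0.993.

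Of 27 other glycogen genes, 22 had a probe set of their own and 15 passed the filter. In HR cells 3 rose and 1 fell in RPMI8226, 0 were called in KMS-11, 1 rose and 2 fell in U266, and 0 rose and 3 fell in IM-9. Over all genes tested, 10.7% rose and 15.3% fell in RPMI8226, 2.44% and 5.83% in KMS-11, 9.68% and 8.42% in U266, and 14.4% and 21.3% in IM-9. None of the 15 was called the same way in 2 lines. GAA, the lysosomal enzyme that degrades glycogen, averaged 7.39 in RPMI8226-HR cells and 6.70 in parental cells, and rose by 0.69 ± 0.08 (adjusted p = 4.06e-05). PHKA1, a subunit of the kinase that activates phosphorylase, averaged 7.81 in U266-HR cells and 8.58 in parental cells, and fell by 0.77 ± 0.08 (adjusted p = 1.38e-05). In RPMI8226 it rose by 0.38, and the difference between lines passed the F test (adjusted p = 3.72e-05). EPM2A, the glycogen phosphatase laforin, likewise rose by 0.40 ± 0.10 in RPMI8226 (adjusted p = 0.0102) and fell by 0.40 ± 0.10 in U266 (adjusted p = 0.0134). Both of its RPMI8226 parental arrays, at 6.08 and 6.10, lay under the filter level. In IM-9, PPP1CC, a catalytic subunit of protein phosphatase 1, fell by 0.32 ± 0.05 (adjusted p = 0.000568) and PHKA2 fell by 0.31 ± 0.08 (adjusted p = 0.00783).

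The 13 neighbouring genes of glucose uptake and hexose phosphates, 11 of them tested, are described beside the same shares. Of these, 4 rose and 1 fell in RPMI8226, 4 rose and 0 fell in KMS-11 and in U266, and 3 rose and 3 fell in IM-9. SLC2A1, a glucose transporter, rose in all 4 lines, by 2.23 ± 0.12 in U266, 1.35 in RPMI8226, 0.95 in KMS-11 and 0.58 in IM-9, as did GPI, the glucose phosphate isomerase. HK2, a hexokinase, averaged 9.46 in U266-HR cells and 6.41 in parental cells, and rose by 3.06 ± 0.12 there (adjusted p = 1.96e-09), with smaller rises in RPMI8226 and KMS-11. Its U266 parental array 1, at 6.14, lay under the filter level. SLC2A3, another glucose transporter, averaged 8.06 in RPMI8226-HR cells and 6.24 in parental cells, rose by 1.82 ± 0.11 in that line, and rose in KMS-11 and IM-9 too. Its RPMI8226 parental array 2, at 6.14, lay under the filter level. SLC37A4, the carrier of glucose phosphate into the endoplasmic reticulum, fell by 0.84 ± 0.06 in IM-9 (adjusted p = 4.15e-07) and rose by 0.33 in U266. G6PC3, a glucose phosphatase, fell in RPMI8226 and IM-9.

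**Figure D4:**
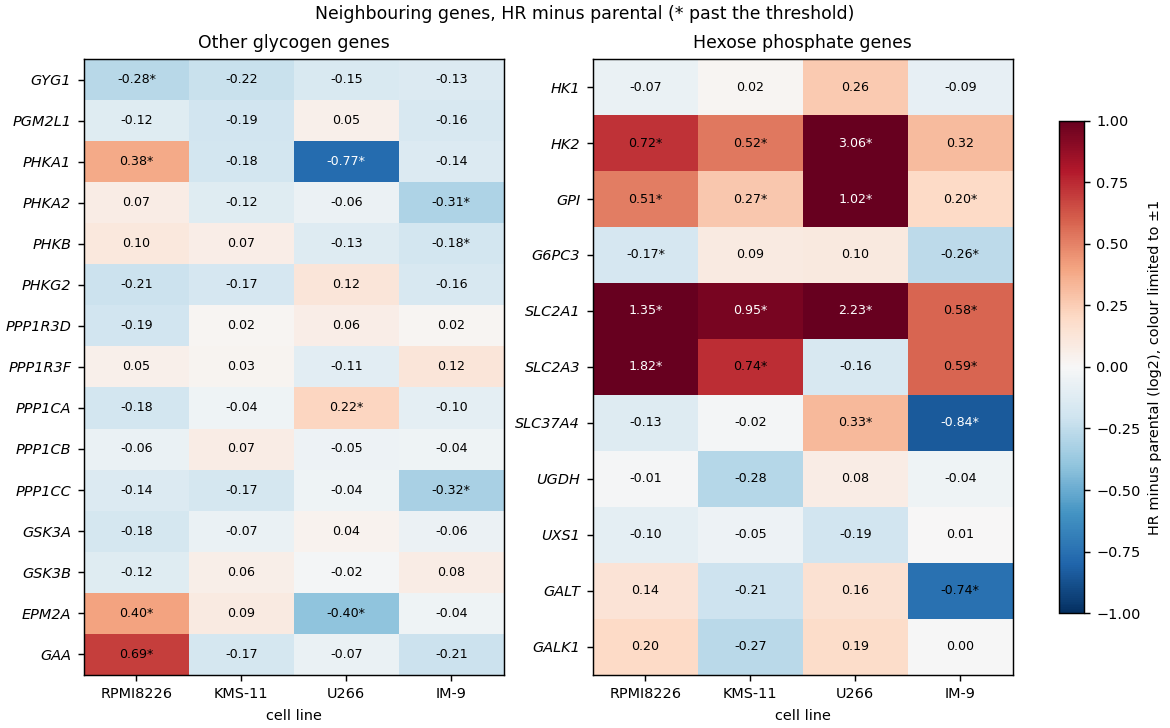
HR minus parental difference on the log2 scale of the 15 other glycogen genes and the 11 hexose phosphate genes tested, per line, with an asterisk for an adjusted p under 0.05 and the colour limited at 1 in either direction. SLC2A1 and GPI carry an asterisk in all 4 lines, and in KMS-11 the left panel holds none.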

How the data were processed

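RNA of 16 cell line arrays was measured, in 8 groups of 2 taken from the labels. The authors deposited log2 intensities of 33297 probe sets, summarised in Affymetrix Expression Console 1.3.0 per the submitters' processing notes. The normalization method is not given in the sources used here. Although the Human Gene 2.0 ST array is named in the series' design, all 21214 probe sets of the Human Gene 1.0 ST platform table were found and supplied the names. Of them, 19460 had 1 symbol and 1754 several. Per gene, the probe set with the highest mean was kept (18417 genes). Genes above 6.27 on at least 2 arrays were tested (12639).

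Groups were fitted in R 4.3.3 with limma 3.58.1 (lmFit, eBayes, 2-sided), with 1 shared spread; across lines, line means were fitted with line as a block. P-values were adjusted by Benjamini-Hochberg over all genes tested, at a threshold of 0.05. The fits were run on simulated data with independent arrays, as a check of the code. That check cannot show whether the arrays of a group are separate cultures. Precision is limited by the number of arrays. Alternatives changed the filter, normalization, probe set, spread model, replicate block and arrays used. Array numbers 1 and 2 recur in the titles, but no label says they mark a shared culture, and the deviations of same-numbered arrays correlated by -0.196 to 0.205 over 28 pairs of groups, so the arrays were not paired. The genes and lists were chosen with earlier results of these data known. Named by rule were the 9 genes, other glycogen genes called the same way in 2 lines or largest 2 per line, hexose phosphate genes likewise with the largest 1 per line, and the 3 most alike genes. Promoter sequences came from RefSeq (GRCh38.p14).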

Additional observations from a re-analysis of the deposited data

Results flagged for a closer look

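For 6 genes the HR difference was not the same in all 4 lines by the F test in limma. The adjusted p was 0.0113 for GBE1, 0.0017 for GYS1, 7.98e-05 for PGM1, 0.0106 for PGM2, 3.92e-05 for PYGL and 0.00104 for PPP1R3B. GBE1 was higher in HR cells of every line, by 0.71 in RPMI8226 to 1.24 in U266. PYGL rose in RPMI8226 and IM-9 and fell in KMS-11. PGM1 rose in every line but IM-9, where its difference was -0.03. GYS1 was called in U266 only, at 0.52. PPP1R3B rose in U266 and IM-9, and in RPMI8226 its difference was -0.13. PGM2 fell in KMS-11 by 0.26, and in U266 its difference was 0.14.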

How the results depend on the processing

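The count of called glycogen genes stayed within 1.5 times its value inside each line, between the parental lines and in the F test under every alternative run. Leaving out 1 array at a time gave 3 to 3 calls in RPMI8226, 3 to 5 in KMS-11, 4 to 4 in U266, 3 to 4 in IM-9, 6 to 6 in the F test, 8 to 8 between the parental lines and 0 to 0 across lines. Against the mean of the other lines these ranges were 3 to 4 for RPMI8226, 1 to 2 for KMS-11, 1 to 5 for U266 and 1 to 4 for IM-9. For that comparison the stricter filter (above the 75th percentile) gave 5 calls for IM-9 and 5 for RPMI8226, where the intensity trend also gave 5. Over all genes, the stricter filter called 3144 of 7325 for IM-9 and 2786 of 7325 for RPMI8226. The intensity trend called 3635 of 12639 for RPMI8226, and the main fit called 3889 of 12639 for IM-9 and 3381 for RPMI8226. For KMS-11, no filter, renewed quantile normalization and the replicate block each gave 1. Over all genes these settings called 1000 of 18417, 1259 of 12570 and 1203 of 12639. Across lines, single arrays with the replicate block gave 3, and 812 of 12639 genes in all, against 0 with lines as units. Elsewhere the replicate block left 78 of 80 gene results as they were and ended 2 calls, PGM1 for U266 (adjusted p = 0.0566) and PGM2 for KMS-11 (adjusted p = 0.0518) in limma against the other lines, and array weights ended that of PYGL for IM-9 (adjusted p = 0.0513). PPP1R3B in KMS-11 passed under the stricter filter, renewed quantile normalization and array weights, with adjusted p of 0.0426, 0.0458 and 0.038. PGM2 in RPMI8226, at -0.15, passed under the stricter filter (adjusted p = 0.0453). Signs turned only in differences that were not called. Without U266, GYS1 across lines was -0.0174, and without RPMI8226, PYGL was -0.0798. Median centring gave -0.0209 for PYGB in KMS-11 and 0.0266 for UGP2 in U266, and renewed quantile normalization 0.0028 for UGP2 in U266. Without 1 array, values ran between -0.179 and 0.048 for GYS1 in RPMI8226, -0.069 and 0.0051 for PGM1 in IM-9, -0.0607 and 0.0031 for PGM2 in IM-9, -0.1494 and 0.0608 for PYGL in U266 and -0.0214 and 0.0382 for PYGB in KMS-11. For UGP2 they ran between -0.0558 and 0.0064 across lines, -0.0725 and 0.0641 in IM-9, -0.1163 and 0.0211 in KMS-11, -0.1699 and 0.0789 in RPMI8226 and -0.0621 and 0.0588 in U266. The cause of these changes was not tested. With 2 arrays a group, precision is low, and values under the filter level limit what PPP1R3C and PYGL in U266 can show. The same limit holds for PYGL in KMS-11-HR cells and on RPMI8226 parental array 1. For PPP1R3B it holds in RPMI8226-HR and IM-9 parental cells.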
